A study of Mus musculus with 8 samples.

Results

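The Notch pathway genes described here are Dtx1, the receptors Notch1, Notch2 and Notch3, the targets Hes1 and Nrarp, and the nuclear partners Rbpj and Maml1. They are 8 of the 27179 genes in the deposited count table. The members were chosen by the measured fall of Dtx1 in cells without Ezh2, to which the other 7 genes of the pathway were joined. The fall of Dtx1 between genotypes is therefore given as a description with no test. The counts come from natural killer T (NKT) cells of the thymus of C57BL/6 mice, T cells whose receptor sees lipids held by CD1d. Ezh2-KO cells lack Ezh2 by label, the enzyme of the Polycomb complex PRC2 that methylates histone H3 at silent genes, and WT cells are wild-type. The sources used here do not give the driver of the deletion, the deleted exons or the age of the mice. Each genotype has 4 libraries in 3 subsets, which differ in surface CD44 and NK1.1. CD44- NK1.1- cells and CD44+ NK1.1+ cells have 1 library per genotype, and CD44+ NK1.1- cells have 2 biological replicates per genotype. Thymic NKT cells are thought to gain CD44 first and NK1.1 last as they mature.

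Notch receptors are cut when a ligand on a neighbouring cell binds them, and their freed intracellular part enters the nucleus. There it joins the DNA-binding protein RBPJ and a Mastermind coactivator such as MAML1, and switches on targets that include Hes1, Nrarp and Dtx1. In the thymus, NOTCH1 signalling commits precursors to the T cell lineage and is shut down as thymocytes mature. Deltex-1, the protein of Dtx1, is a ubiquitin ligase that binds the intracellular part of Notch and is also known for promoting T cell anergy.

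The 8 genes lie on 6 chromosomes of mouse build mm10. Dtx1 (Entrez gene 14357) spans chromosome 5 from 120680203 to 120711867, and Rbpj (19664) spans 53555779 to 53657445 of the same chromosome. Nrarp (67122) and Notch1 (18128) are near each other on chromosome 2, at 25180758 to 25183339 and at 26457902 to 26503822. Notch2 (18129) is at 98013538 to 98150367 of chromosome 3, Notch3 (18131) at 32120820 to 32166896 of chromosome 17, Hes1 (15205) at 30065357 to 30067796 of chromosome 16 and Maml1 (103806) at 50255634 to 50293131 of chromosome 11. Promoter windows of RefSeq on build GRCm38.p6, from 250 bases before to 50 bases after a start site, were found for 7 of the 8 members, the exception being Hes1. The windows below are shown because Dtx1 and Nrarp are Notch targets whose RNA was low without Ezh2, and because Rbpj was the one member whose window held the core letters bound by RBPJ itself. Capitals mark TGGGAA on either strand.

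Dtx1, chr5:120711620-120711919, minus strand: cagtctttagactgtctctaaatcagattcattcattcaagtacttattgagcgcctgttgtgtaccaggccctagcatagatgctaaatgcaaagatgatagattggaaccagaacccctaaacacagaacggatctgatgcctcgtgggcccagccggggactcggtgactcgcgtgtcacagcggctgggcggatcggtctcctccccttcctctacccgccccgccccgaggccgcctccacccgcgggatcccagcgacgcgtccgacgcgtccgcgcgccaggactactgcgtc

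Nrarp, chr2:25180508-25180807, plus strand: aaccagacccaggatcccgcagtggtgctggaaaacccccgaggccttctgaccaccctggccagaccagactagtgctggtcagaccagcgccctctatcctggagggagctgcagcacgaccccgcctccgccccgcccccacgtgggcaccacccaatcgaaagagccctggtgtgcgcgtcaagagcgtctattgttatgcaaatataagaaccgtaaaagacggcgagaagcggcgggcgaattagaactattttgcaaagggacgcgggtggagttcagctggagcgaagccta

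Rbpj, chr5:53590096-53590395, plus strand: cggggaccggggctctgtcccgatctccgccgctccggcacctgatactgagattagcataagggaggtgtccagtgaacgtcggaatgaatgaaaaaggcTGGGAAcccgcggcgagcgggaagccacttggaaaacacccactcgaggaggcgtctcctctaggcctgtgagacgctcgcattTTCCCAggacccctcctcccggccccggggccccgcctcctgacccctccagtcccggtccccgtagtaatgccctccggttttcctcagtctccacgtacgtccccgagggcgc

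The letters TGGGAA, searched on both strands, stood in 25.6% of all 32851 windows and in 2 of the 8 windows of the members. Those 2 are overlapping windows of Rbpj and share a match. Both lie inside the Rbpj span given above, at start sites within the gene and not at the beginning of that span. In the Rbpj window printed above, the letters run from base -149 to -144 on the plus strand and from -65 to -60 on the minus strand, counted from the start site. The longer GTGGGAA, which contains TGGGAA, was in 6.4% of all windows and in 0 of the 8. All of the members' windows were rich in G and C, at 59.3% for Dtx1, 60% for Nrarp, 64.7% for the Rbpj window above and 68.3% for Notch1, beside a median of 52.7% over all windows. The Dtx1 window held 26 CG dinucleotides and that of Nrarp 21, where the median window held 7.

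Library depth was 20308745 to 22995090 counts, and all 8 members were among the 13794 genes that passed the filter on low counts and were tested. Levels are counts scaled to library size with TMM factors (CPM), and per-length levels are those values divided by gene length (RPKM). Ezh2 itself, the targeted gene, stood at 83.3 and 77.9 CPM in the 2 Ezh2-KO CD44+ NK1.1- libraries, against 113 and 136 CPM in the WT ones. It stood at 40.4 CPM in Ezh2-KO and 57.2 CPM in WT CD44+ NK1.1+ cells, and at 78.4 CPM in Ezh2-KO and 109 CPM in WT CD44- NK1.1- cells. Reads over the whole gene remained at 64.7% to 72.2% of WT, and since the deleted part is not given they check the labels by direction only. The 7 NKT and T cell markers were detected in every library, and Cd44 and Klrb1c (NK1.1) were highest in the CD44+ NK1.1+ libraries. Replicate 1 of WT CD44+ NK1.1- cells stood apart. Its 17 immediate early genes summed to 4153 CPM, against 1093 CPM in WT replicate 2 and 1014 and 933 CPM in the Ezh2-KO replicates, and its Klrb1c was 217 CPM against 68.5 CPM in WT replicate 2. Its 8 markers of immature thymocytes, all detected, summed to 95.7 CPM, against 45.1 CPM in WT replicate 2 and 41.8 and 30.9 CPM in the Ezh2-KO replicates.

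**Figure D1:**
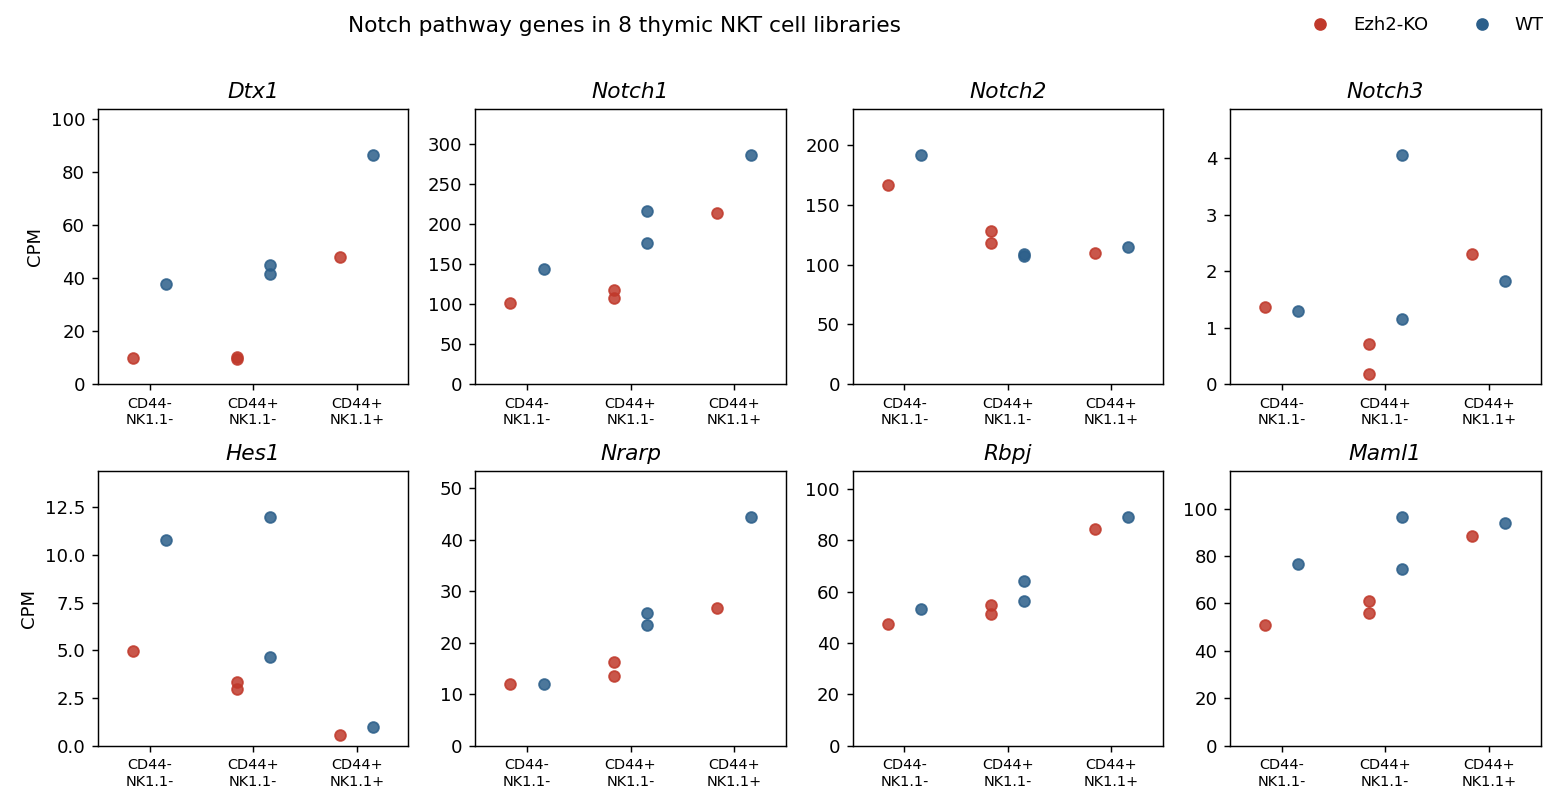
Level of each gene in CPM (y axis, from 0) in the 8 libraries, by subset (x axis); each point is 1 library, red for Ezh2-KO and blue for WT. Dtx1 is at 9.59 to 10.4 CPM in the 3 Ezh2-KO libraries without NK1.1 and at 48.0 CPM in the Ezh2-KO CD44+ NK1.1+ library, while Hes1 is lowest in both CD44+ NK1.1+ libraries.

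Dtx1 RNA was low without Ezh2 in each subset, and as a share of the WT level it was least reduced in CD44+ NK1.1+ cells. Dtx1 was at 10.4 and 9.59 CPM in Ezh2-KO CD44+ NK1.1- cells, against 41.5 and 45.0 CPM in WT cells. The group means were 9.99 ± 0.576 and 43.3 ± 2.48 CPM (SD, n = 2 each), so Ezh2-KO cells held 23.1% of the WT level, a log2 difference of -2.11 (SE 0.12). In CD44- NK1.1- cells Dtx1 was at 9.99 CPM in Ezh2-KO and 37.8 CPM in WT, and in CD44+ NK1.1+ cells at 48.0 CPM in Ezh2-KO and 86.3 CPM in WT. The Ezh2-KO level was thus 26.5% of WT (95% counting interval of the ratio 0.227 to 0.307) in CD44- NK1.1- cells and 55.7% (0.514 to 0.602) in CD44+ NK1.1+ cells. These intervals cover counting error only, since each of those groups is 1 library. Over the 3 subsets the fitted log2 difference was -1.73 (SE 0.22). In bulk RNA, fewer cells that express a gene and less RNA per cell cannot be told apart.

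The genotype effect was also set side by side between subsets. For Dtx1 the fitted effect in CD44+ NK1.1+ cells was 1.27 log2 units nearer to 0 than in CD44+ NK1.1- cells (SE 0.20), and between CD44- NK1.1- and CD44+ NK1.1- cells it differed by 0.20 (SE 0.20). These are descriptions with no test, since they are built from the genotype values that chose Dtx1. For the other genes the difference of effects was tested by edgeR. Of the 13794 genes 0% were called for CD44+ NK1.1+ minus CD44+ NK1.1- cells (519 at an unadjusted p under 0.05, and 28 called by DESeq2). For CD44- NK1.1- minus CD44+ NK1.1- cells 0.0217% were called (648 at an unadjusted p under 0.05, and 28 called by DESeq2). Of the 7 members other than Dtx1, 0 were called in either comparison by edgeR, DESeq2 or limma-voom. At an unadjusted p under 0.05 there were 0 of the 7 for CD44+ NK1.1+ cells and 1, Nrarp, for CD44- NK1.1- cells.

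Notch1, the receptor for T lineage commitment, was at 117 and 107 CPM in Ezh2-KO CD44+ NK1.1- cells, against 216 and 176 CPM in WT cells. Both Ezh2-KO libraries lay below both WT libraries, and the fitted log2 difference of -0.80 (SE 0.13) passed the test with an edgeR adjusted p of 0.0246. The higher WT value is that of the library with high immediate early genes, without which the difference was -0.65. The call was lost without either one of the Ezh2-KO replicates, where the adjusted p reached 0.277. Notch1 was also lower in the other subsets, at 101 CPM in Ezh2-KO and 144 CPM in WT CD44- NK1.1- cells and at 213 CPM in Ezh2-KO and 286 CPM in WT CD44+ NK1.1+ cells. It fell by 0.64 on the log2 scale over the 3 subsets (SE 0.10, edgeR adjusted p = 0.00713), and this call was kept under all 14 alternatives.

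Notch2, a receptor that is also expressed by mature lymphocytes, was not called between genotypes. It was at 128 and 118 CPM in Ezh2-KO CD44+ NK1.1- cells, against 109 and 107 CPM in WT cells, a log2 difference of 0.19 (SE 0.09, edgeR adjusted p = 0.315). In CD44- NK1.1- cells it was at 167 CPM in Ezh2-KO and 192 CPM in WT, and in CD44+ NK1.1+ cells at 110 CPM in Ezh2-KO and 115 CPM in WT. The log2 difference over the 3 subsets was 0.03 (SE 0.08, edgeR adjusted p = 0.844).

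Notch3, a receptor best known in immature thymocytes, was barely detected. It had 15 and 4 counts (0.716 and 0.180 CPM) in Ezh2-KO CD44+ NK1.1- cells, against 90 and 27 counts (4.06 and 1.16 CPM) in WT cells. The groups did not overlap, but the replicates differed so widely that the log2 difference of -2.54 (SE 0.83) missed the threshold (edgeR adjusted p = 0.173), and it ranged from -3.81 to -1.39 over the alternatives. In the other subsets Notch3 was not lower in Ezh2-KO, at 1.37 CPM in Ezh2-KO and 1.30 CPM in WT CD44- NK1.1- cells and at 2.31 CPM in Ezh2-KO and 1.83 CPM in WT CD44+ NK1.1+ cells. The immature thymocyte markers moved with it. Dntt, the terminal transferase of thymocytes that rearrange their receptor genes, was at 8.78 and 0.81 CPM in Ezh2-KO CD44+ NK1.1- replicates 1 and 2, against 30.9 and 9.42 CPM in WT replicates 1 and 2. Over the 8 libraries, the highest and the lowest Notch3 level and the highest and the lowest sum of the 8 thymocyte markers were in the same 2 libraries. That sum was 30.9 to 72.5 CPM in the Ezh2-KO libraries and 45.1 to 95.7 CPM in the WT libraries, Rag2 was at 0 in Ezh2-KO CD44+ NK1.1- replicate 2, and the part of these cells in the Notch3 result was not tested.

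**Figure D2:**
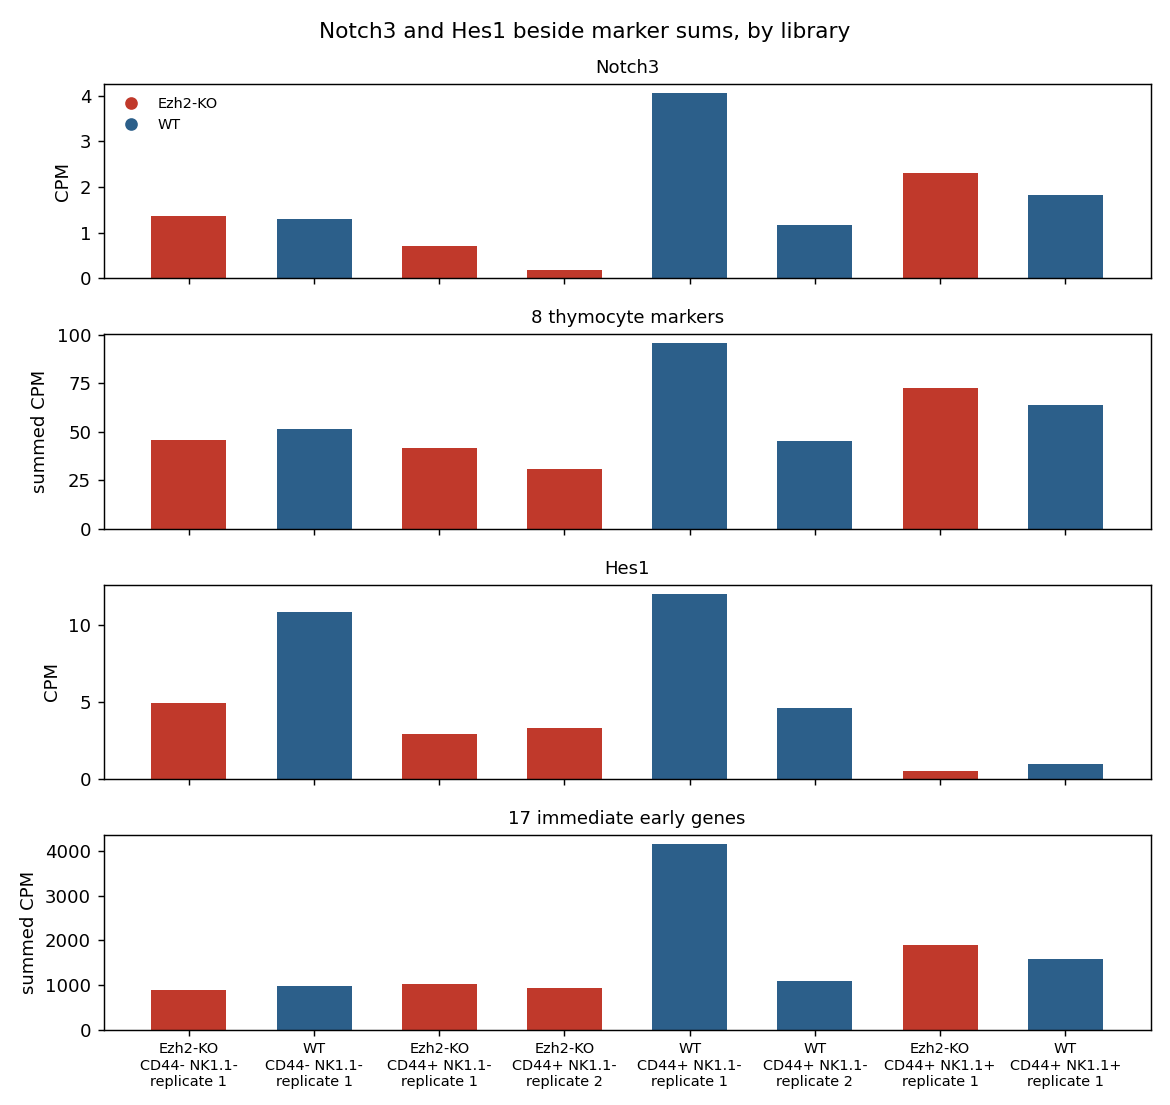
Levels in CPM (y axes, from 0) of Notch3 and Hes1 and summed CPM of 8 thymocyte markers and 17 immediate early genes in each library (x axis), red bars for Ezh2-KO and blue for WT. WT CD44+ NK1.1- replicate 1 is the highest library in all 4 panels, at 4.06 CPM for Notch3 and 12 CPM for Hes1.

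Among the targets, Nrarp fell in CD44+ NK1.1- cells and Hes1 did not pass there. Nrarp encodes an ankyrin repeat protein that is induced by Notch and limits the stability of its intracellular part. It was at 16.3 and 13.6 CPM in Ezh2-KO cells, against 23.4 and 25.8 CPM in WT cells, a log2 difference of -0.72 (SE 0.14, edgeR adjusted p = 0.0474). This call was near the threshold. It was lost with scaling by library size alone, with DESeq2, with limma-voom and without either one of the Ezh2-KO replicates, where the adjusted p reached 0.53. In CD44+ NK1.1+ cells Nrarp was at 26.7 CPM in Ezh2-KO and 44.5 CPM in WT, a ratio of 0.602 (0.540 to 0.670). In CD44- NK1.1- cells it was close in level between genotypes, at 11.9 CPM in Ezh2-KO and 12 CPM in WT, a ratio of 0.989 (0.831 to 1.18). The effect on Nrarp differed by 0.70 log2 units between CD44- NK1.1- and CD44+ NK1.1- cells (SE 0.25, edgeR adjusted p = 0.946). Nrarp fell by 0.56 over the 3 subsets (SE 0.14, edgeR adjusted p = 0.0383), and 6 of 14 alternatives lost this call.

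Hes1, a helix-loop-helix repressor and the classic Notch target, was at 2.96 and 3.33 CPM in Ezh2-KO CD44+ NK1.1- cells, against 12 and 4.64 CPM in WT cells. The groups did not overlap, and the higher WT value belongs to the library with high immediate early genes. The log2 difference was -1.40 (SE 0.46, edgeR adjusted p = 0.175) with that library and -0.56 without it. In CD44- NK1.1- cells Hes1 was at 4.95 CPM in Ezh2-KO and 10.8 CPM in WT, a ratio of 0.457 (0.361 to 0.576). In CD44+ NK1.1+ cells it had 11 counts in Ezh2-KO and 20 counts in WT, a ratio of 0.573 (0.248 to 1.26) whose interval includes 1. Over the 3 subsets Hes1 fell by 1.24 on the log2 scale (SE 0.31, edgeR adjusted p = 0.0416), and 7 of 14 alternatives lost this call, with an adjusted p of up to 0.148. The part of the immediate early response in the Hes1 result was not tested.

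Of the nuclear partners, Maml1 fell over the 3 subsets together and Rbpj was not called. Maml1, a coactivator that binds the Notch and RBPJ complex, was at 61.1 and 55.8 CPM in Ezh2-KO CD44+ NK1.1- cells, against 96.6 and 74.4 CPM in WT cells (log2 difference -0.55, SE 0.15, edgeR adjusted p = 0.0995). The higher WT value is that of the library with high immediate early genes, without which the difference was -0.35. It was at 50.9 CPM in Ezh2-KO and 76.6 CPM in WT CD44- NK1.1- cells, and at 88.5 CPM in Ezh2-KO and 94.1 CPM in WT CD44+ NK1.1+ cells. The effect in CD44+ NK1.1+ cells differed from that in CD44+ NK1.1- cells by 0.46 (SE 0.25, edgeR adjusted p = 1). Maml1 fell by 0.44 over the 3 subsets (SE 0.11, edgeR adjusted p = 0.0457), a call lost under 6 of 14 alternatives. Rbpj, which anchors the complex to DNA, was at 54.8 and 51.5 CPM in Ezh2-KO CD44+ NK1.1- cells, against 64.1 and 56.6 CPM in WT cells. Its log2 difference was -0.18 (SE 0.11, edgeR adjusted p = 0.409) there and -0.15 (SE 0.06, edgeR adjusted p = 0.17) over the 3 subsets.

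**Figure D3:**
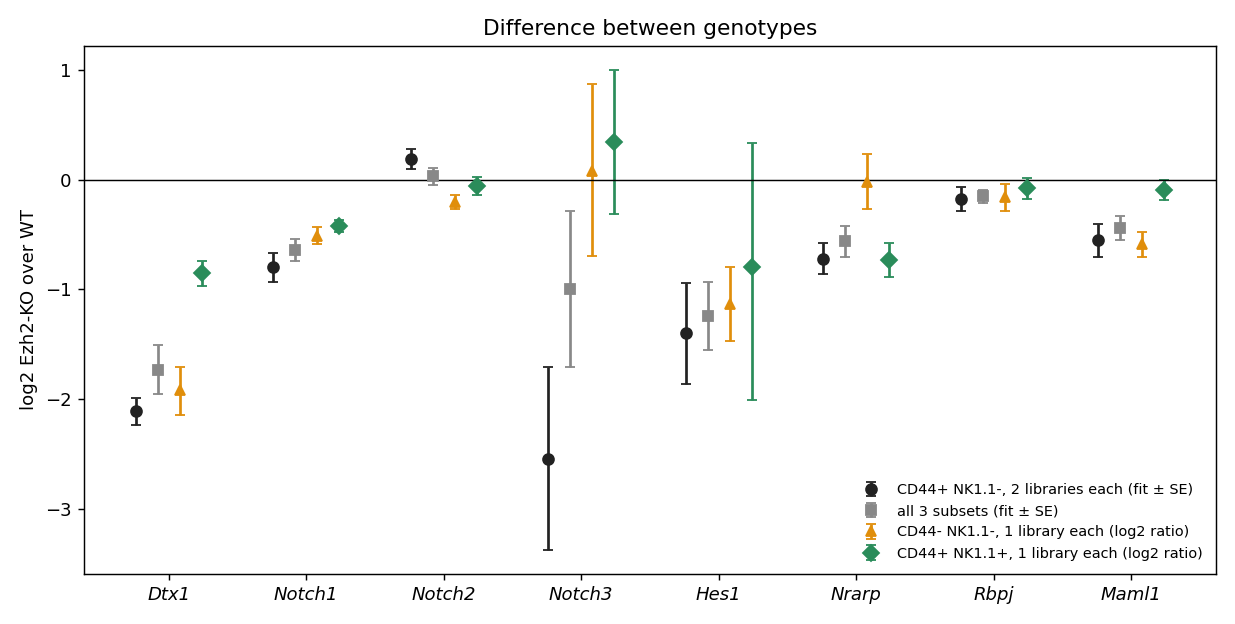
Log2 ratio of Ezh2-KO over WT (y axis) for each gene (x axis): black and grey points are fitted differences with their SE in CD44+ NK1.1- cells and over all subsets, orange and green points are single-library log2 ratios with 95% counting intervals. Dtx1 lies lowest in CD44- NK1.1- and CD44+ NK1.1+ cells, but in CD44+ NK1.1+ cells its interval overlaps those of Hes1 and Nrarp. Notch3 has the widest SE in CD44+ NK1.1- cells, at -2.54 with an SE of 0.83.

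In CD44+ NK1.1- cells, 2 of the 7 members other than Dtx1 were called lower without Ezh2 (Notch1 and Nrarp) and 0 higher by edgeR. Of all tested genes, 1.16% were called lower and 3.78% higher. At an unadjusted p under 0.05, 5 of the 7 were lower and 0 higher, beside 2853 of the 13794 genes in either direction. DESeq2 and limma-voom each called 1 lower and 0 higher. The higher share of all called genes there was 76.5%, or 58.7% with DESeq2. Over the 3 subsets 4 of the 7 were called lower (Notch1, Hes1, Nrarp and Maml1) and 0 higher, where 4.89% of all genes were called lower and 6.43% higher. DESeq2 called 4 lower and limma-voom 3, each with 0 higher. At an unadjusted p under 0.05, 5 were lower, beside 3707 of the 13794 genes in either direction. With scaling by library size alone the higher share of all called genes was 68.1% in place of 56.8%, and 3 of the 7 members were called lower. The median log2 difference of the 7 was -0.72 in CD44+ NK1.1- cells and -0.56 over the 3 subsets, beside a median of -0.01 over all genes in both. By level alone, 5 of the 7 lay lower in Ezh2-KO in every subset, with no overlap between the CD44+ NK1.1- replicates, as did Dtx1, and 14.5% of all tested genes did so. The exceptions were Notch2 and Notch3. Some of the single-library differences behind this count lay within counting error. The counting interval of the ratio reached 1 for Nrarp in CD44- NK1.1- cells (0.831 to 1.18). In CD44+ NK1.1+ cells it did so for Hes1 (0.248 to 1.26), Rbpj (0.883 to 1.01) and Maml1 (0.882 to 1).

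Markers of other cells differed between genotypes in the same libraries. The 6 markers of gamma-delta T cells found in the table, of 8 listed, summed to 576 and 561 CPM in Ezh2-KO CD44+ NK1.1- cells, against 298 and 310 CPM in WT cells. Their sum was 562 CPM in Ezh2-KO and 316 CPM in WT CD44+ NK1.1+ cells, and 803 CPM in Ezh2-KO and 776 CPM in WT CD44- NK1.1- cells. Trdc, the constant gene of the T cell receptor delta chain, was at 33.9 and 34.7 CPM in Ezh2-KO CD44+ NK1.1- cells, against 10.4 and 6.41 CPM in WT cells, while Trdv4 was at 0 in both of those Ezh2-KO libraries. The 4 markers of regulatory T cells, which include Il2ra, summed to 108 to 195 CPM in the Ezh2-KO libraries, against 86.6 to 121 CPM in the WT libraries. Foxp3, which defines those cells, had 3 to 7 counts in the Ezh2-KO libraries and 6 to 15 counts in the WT libraries. The 4 erythroid markers found, of 5 listed, summed to 0.45 to 51.1 CPM in the Ezh2-KO libraries, against 0.899 to 1.29 CPM in the WT libraries. The lowest of these values, 0.45 CPM, was in Ezh2-KO CD44+ NK1.1- replicate 2. The part of gamma-delta T cells, regulatory T cells and erythroid cells in the members' results was not tested.

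The next question was how the genes change between the subsets. The rule that chose the members is about genotype, but earlier results of these data were known. Dtx1, Notch1, Nrarp and Rbpj rose in CD44+ NK1.1+ cells and Hes1 fell. These differences are means over both genotypes. Dtx1 was 1.63 log2 units higher in CD44+ NK1.1+ than in CD44+ NK1.1- cells (SE 0.09). That mean includes the Ezh2-KO values that chose Dtx1 and is given with no test. The rise was 1.0 (SE 0.13) in WT cells alone and passed the test there (edgeR adjusted p = 0.0122). In Ezh2-KO cells alone it was 2.26 (SE 0.14), given with no test, since it starts from the low values that chose Dtx1. Nrarp, for comparison, rose by 0.86 (SE 0.17) in WT cells alone. Dtx1 in Ezh2-KO CD44+ NK1.1+ cells, at 48.0 CPM, reached the level of WT CD44+ NK1.1- cells, at 41.5 and 45.0 CPM. Between CD44+ NK1.1- and CD44- NK1.1- cells Dtx1 differed by 0.10 (SE 0.10) as a mean over both genotypes, again with no test. In WT cells alone it differed by 0.20 (SE 0.14).

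Dtx1 levels are also given per length. In CD44- NK1.1- cells Dtx1 was at 2.69 RPKM in Ezh2-KO and 10.2 RPKM in WT. In CD44+ NK1.1- cells it was at 2.69 ± 0.155 RPKM in Ezh2-KO and 11.6 ± 0.668 RPKM in WT (SD, n = 2 each), and in CD44+ NK1.1+ cells at 12.9 RPKM in Ezh2-KO and 23.2 RPKM in WT. The 2 Ezh2-KO subsets without NK1.1 did not differ beyond the spread of the replicates. Each of the other pairs of neighbouring levels includes a group of 1 library.

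Notch1 was higher by 0.73 (SE 0.11, edgeR adjusted p = 0.0053), Nrarp by 0.85 (SE 0.12, 0.00467) and Rbpj by 0.62 (SE 0.09, 0.00564) in CD44+ NK1.1+ than in CD44+ NK1.1- cells. The rise of Nrarp held in each genotype alone, that of Notch1 was lost in WT cells alone (edgeR adjusted p = 0.076), and that of Rbpj was lost without Ezh2-KO CD44+ NK1.1- replicate 2 (0.054). Maml1 differed by 0.37 (SE 0.12, edgeR adjusted p = 0.0651), Notch2 by -0.03 (SE 0.08, 0.782) and Notch3 by 0.93 (SE 0.65, 0.318). Hes1 went the other way, at 0.553 CPM in Ezh2-KO and 0.965 CPM in WT CD44+ NK1.1+ cells, below every other library. Its log2 difference was -2.80 (SE 0.53, edgeR adjusted p = 0.0149), and the call was lost in either genotype alone, with adjusted p-values of 0.0868 in Ezh2-KO and 0.0542 in WT. In this comparison 3 of the 7 members other than Dtx1 were called higher and 1 lower, where 16.4% of all genes were called higher and 16.1% lower. Scaling by library size alone put the median of all genes at -0.132 and the higher share of called genes at 31.8% in place of 50.5%, and the members were still called 4 higher and 1 lower.

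Between CD44+ NK1.1- and CD44- NK1.1- cells few members were called. Of the 7 members other than Dtx1, Notch2 alone was called by edgeR. It was lower by a log2 difference of -0.64 in CD44+ NK1.1- cells (SE 0.08, edgeR adjusted p = 0.0149). That call was lost without either Ezh2-KO CD44+ NK1.1- replicate and in Ezh2-KO cells alone. Nrarp differed by 0.68 (SE 0.13, edgeR adjusted p = 0.0586). Of all genes, 1.59% were called higher and 1.07% lower, and the higher share of called genes was 72.2% with DESeq2 in place of 59.9%. None of the 7 members was called higher by edgeR or limma-voom, while DESeq2 called 1 higher. At an unadjusted p under 0.05, 2 were higher, beside 2124 of the 13794 genes in either direction. Between CD44+ NK1.1+ and CD44- NK1.1- cells, 4 of the 7 members other than Dtx1 were called higher and 2 lower, beside 16.0% and 16.2% of all genes. Nrarp was higher by 1.52 (SE 0.15, edgeR adjusted p = 0.00111), Notch1 by 1.03 (SE 0.13, 0.00273), Rbpj by 0.79 (SE 0.11, 0.00399) and Maml1 by 0.55 (SE 0.15, 0.0329). Dtx1 was higher by 1.73 (SE 0.12), given with no test because that mean includes the Ezh2-KO values that chose it. In WT cells alone Dtx1 was higher by 1.19 (SE 0.16) and Nrarp by 1.88 (SE 0.21). The Maml1 call was lost under 5 of 12 alternatives, with scaling by library size alone, without either Ezh2-KO CD44+ NK1.1- replicate and in each genotype alone, where the difference was 0.80 in Ezh2-KO and 0.30 in WT cells (edgeR adjusted p = 0.0506 and 0.367). Notch2 was lower, at -0.67 (SE 0.09, edgeR adjusted p = 0.00392), and so was Hes1, at -3.32 (SE 0.57, 0.0105), a call lost in Ezh2-KO cells alone (0.0637). With scaling by library size alone the median of all genes lay at -0.155 here. The higher share of called genes was then 33.2% in place of 49.7%. Of the 8 members, Dtx1 included, 4 were then called higher and 2 lower. The 3 subset comparisons share libraries with each other and with the genotype comparisons. Each NK1.1+ group is 1 library, so the spread in these tests comes from the CD44+ NK1.1- replicates.

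**Figure D4:**
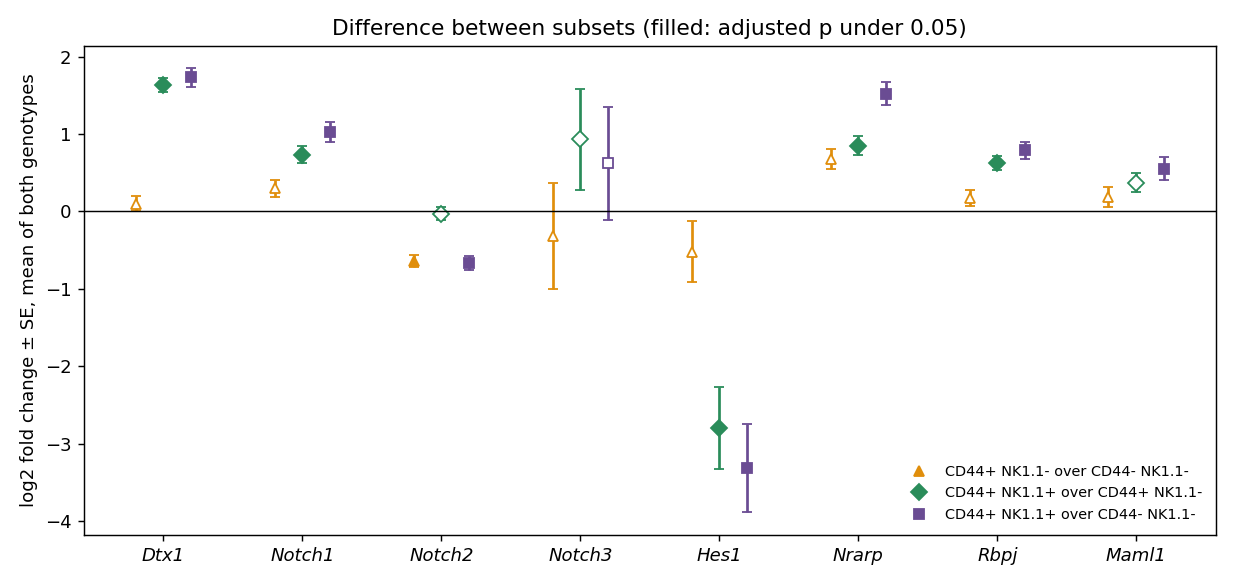
Log2 fold change between subsets (y axis, mean of both genotypes, bars are SE) for each gene (x axis), filled where the adjusted p was under 0.05: orange CD44+ NK1.1- over CD44- NK1.1-, green CD44+ NK1.1+ over CD44+ NK1.1-, purple CD44+ NK1.1+ over CD44- NK1.1-. Dtx1, at 1.63 and 1.73, and Hes1, at -2.80 and -3.32, lie on opposite sides of 0 in the 2 comparisons with CD44+ NK1.1+ cells on top. The Dtx1 points include the Ezh2-KO values that chose it, so their filling is not read as a test.

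Per length, Notch1 stood highest on average and Notch3 lowest. Averaged over the 8 libraries the order was Notch1 (17.9 RPKM), Maml1 (13.5), Notch2 (12.4), Rbpj (11.0), Dtx1 (9.71), Nrarp (8.44), Hes1 (3.47) and Notch3 (0.204). The ranges of the first 6 genes overlapped, from 10.7 to 30.1 RPKM for Notch1 and from 2.58 to 23.2 RPKM for Dtx1, so that neighbours in this order do not stand clear of each other. Notch3 never exceeded 0.511 RPKM. The highest library exceeded the lowest by 9-fold for Dtx1 and by 21.7-fold for Hes1, against 1.80-fold to 3.73-fold for Notch1, Notch2, Nrarp, Rbpj and Maml1. The 22.5-fold span of Notch3 starts from 4 counts.

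Some genes followed Dtx1 closely over the 8 libraries. By Pearson's r on log2 CPM, among 9184 genes with a mean of at least 3 log2 CPM, the 5 most alike were Son (r = 0.994), Dip2b (0.983), Zfp319 (0.982), Myd88 (0.981) and Dctn4 (0.978). Their span was far smaller than that of Dtx1. Son, an RNA splicing factor, ranged from 356 CPM in Ezh2-KO CD44+ NK1.1- replicate 2 to 508 CPM in the WT CD44+ NK1.1+ library. Of the other members, Notch1 had an r of 0.943 (rank 96), Maml1 0.923 (rank 170), Nrarp 0.792 (rank 1037), Rbpj 0.778 (rank 1160) and Notch2 -0.319 (rank 5945), while Hes1 and Notch3 were below the level limit. Ezh2 had an r of -0.107. The 8 libraries share genotypes and subsets and hold the genotype values that chose Dtx1, so the r values describe this set only.

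The rest of the pathway showed no common direction between genotypes. Of 77 further pathway genes listed by role, 76 were in the table and 66 were tested. In CD44+ NK1.1- cells 6 of the 66 were called higher without Ezh2 and 1 lower, beside 3.78% and 1.16% of all genes, with a median log2 difference of -0.10 beside -0.01 over all genes. With all subsets, 8 were called higher and 10 lower, beside 6.43% and 4.89% of all genes, with a median of -0.04. The 15 ubiquitin ligases and endocytic adaptors, the class of Dtx1, had 0 called in CD44+ NK1.1- cells by edgeR, DESeq2 or limma-voom. At an unadjusted p under 0.05, 2 of them were higher and 2 lower, beside 2853 of the 13794 genes in either direction. Dtx2, Dtx3, Dtx3l and Dtx4, the other Deltex family genes, had log2 differences of 0.32, -0.22, -0.33 and -0.57 there. Over the 3 subsets Dtx4 fell (-0.69, SE 0.13, edgeR adjusted p = 0.0135), Dtx3l fell (-0.42, SE 0.06, 0.00602) and Dtx2 rose (0.30, SE 0.06, 0.0201). The Dtx2 call was lost under 6 of 14 alternatives, each with a library left out (adjusted p up to 0.0963), and that of Dtx4 without Ezh2-KO CD44+ NK1.1- replicate 2 (0.0652). Dtx4 was at 26.6 and 24.3 CPM in Ezh2-KO CD44+ NK1.1- cells, against 43.5 and 32.2 CPM in WT cells.

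Among the ligands, Jag1 and Dlk1 rose in CD44+ NK1.1- cells. They are 2 of the 4 ligands tested, of 8 listed. Jag1, which encodes the Notch ligand Jagged-1, was at 39.8 and 38.9 CPM in Ezh2-KO cells, against 18.5 and 18.2 CPM in WT cells (log2 difference 1.1, SE 0.11, edgeR adjusted p = 0.005). In CD44+ NK1.1+ cells it was at 26.1 CPM in Ezh2-KO and 34.1 CPM in WT, and in CD44- NK1.1- cells at 61.5 CPM in Ezh2-KO and 54.3 CPM in WT. Its effect in CD44+ NK1.1+ cells differed from that in CD44+ NK1.1- cells by -1.49 (SE 0.18, edgeR adjusted p = 0.353), and over the 3 subsets Jag1 was not called (0.50, SE 0.26, 0.277). Dlk1, a membrane protein related to Notch ligands, was at 19.5 and 16.5 CPM in Ezh2-KO CD44+ NK1.1- cells, against 5.09 and 6.92 CPM in WT cells (log2 difference 1.58, SE 0.20, edgeR adjusted p = 0.0115). It was higher without Ezh2 in the other subsets too, at 25.3 CPM in Ezh2-KO and 5.58 CPM in WT CD44- NK1.1- cells and at 3.12 CPM in Ezh2-KO and 1.01 CPM in WT CD44+ NK1.1+ cells. Both ligand calls were lost without either Ezh2-KO CD44+ NK1.1- replicate, with adjusted p-values of up to 0.0891 for Jag1 and 0.116 for Dlk1. Over the 3 subsets Dlk1 rose by 1.75 on the log2 scale, a call kept under all 14 alternatives. Dll1, Dll3, Dll4 and Dner had 0 to 24 counts in all 8 libraries together and were not tested, nor was Notch4 with 61.

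Among the genes that process the receptor, Aph1b and Adam10 rose and Furin fell. Aph1b, a subunit of gamma-secretase, was at 3.48 and 3.56 CPM in Ezh2-KO CD44+ NK1.1- cells, against 1.35 and 1.12 CPM in WT cells (log2 difference 1.51, SE 0.24, edgeR adjusted p = 0.0242). Adam10, the protease of the outer cut, rose by 0.45 (SE 0.09, edgeR adjusted p = 0.0462). Furin, the protease that matures the receptor, fell by 0.52 (SE 0.10, edgeR adjusted p = 0.0435). All 3 calls were lost without either Ezh2-KO CD44+ NK1.1- replicate, with edgeR adjusted p-values of up to 0.237 for Aph1b, 0.548 for Adam10 and 0.541 for Furin. That of Aph1b was also lost with DESeq2, those of Adam10 and Furin with limma-voom, and that of Furin with scaling by library size alone. The other 6 of 9 tested genes of this list were not called in CD44+ NK1.1- cells. Over the 3 subsets 2 of the 9 were called higher and 2 lower, beside 6.43% and 4.89% of all genes. There Aph1b rose by 1.58 and Furin fell by 0.42 on the log2 scale, and both calls were kept under all 14 alternatives. Psen2 fell by 0.20, a call lost under 11 of 14. Of the 6 genes of receptor glycosylation 0 were called by edgeR, DESeq2 or limma-voom, and 0 had an unadjusted p under 0.05. Of 13 corepressors 1 was called, Ctbp2, with 7.35 and 5.85 CPM in Ezh2-KO CD44+ NK1.1- cells, against 0.27 and 0.60 CPM in WT cells (log2 difference 3.89, SE 0.35, edgeR adjusted p = 0.00396). Of the 7 coactivators 0 were called by edgeR, DESeq2 or limma-voom. At an unadjusted p under 0.05, 2 of them were higher and 1 lower, beside 2853 of the 13794 genes in either direction.

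Beyond Hes1 and Nrarp, 12 of 14 listed targets were tested and 1 was called in CD44+ NK1.1- cells. That gene, Igf1r, a growth factor receptor, rose, at 26.1 and 22.9 CPM in Ezh2-KO cells, against 10.8 CPM in each WT replicate (log2 difference 1.19, SE 0.14, edgeR adjusted p = 0.00993). Its call was lost without either Ezh2-KO CD44+ NK1.1- replicate (adjusted p up to 0.166). Over the 3 subsets 2 of the 12 were called higher and 2 lower, beside 6.43% and 4.89% of all genes. Igf1r rose by 0.84 on the log2 scale there, a call lost under 3 of 14 alternatives. Ccnd3, a cyclin, and Il2ra, the IL-2 receptor alpha chain, fell by 0.35 (SE 0.06, edgeR adjusted p = 0.00994) and by 0.65 (SE 0.12, 0.013). Without Ezh2-KO CD44+ NK1.1- replicate 2 both calls were lost (edgeR adjusted p = 0.0571 for Ccnd3 and 0.0641 for Il2ra), and that of Il2ra also without either CD44+ NK1.1+ library. The targets thus moved in both directions, with a median of -0.31 over the 12 in CD44+ NK1.1- cells.

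**Figure D5:**
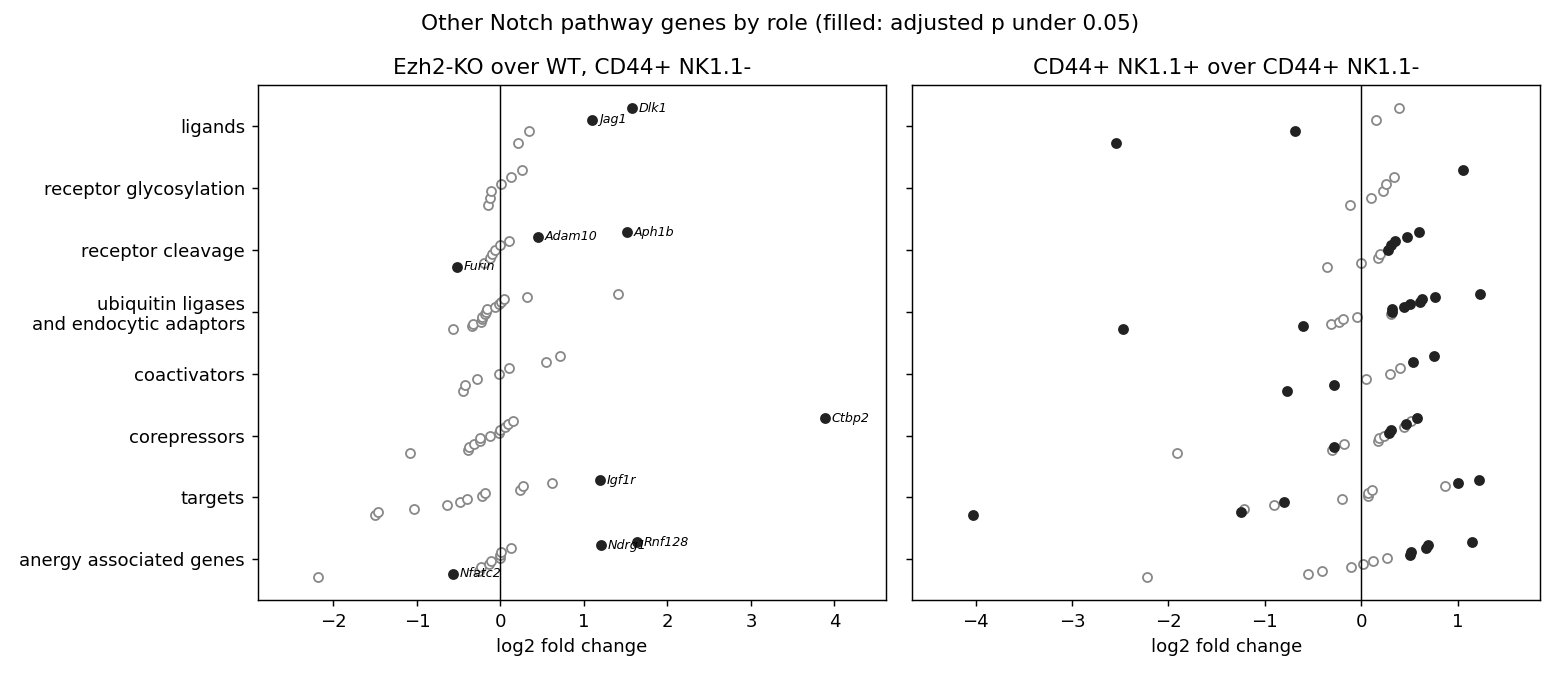
Log2 fold change (x axes) of tested Notch pathway genes outside the 8 members and of anergy genes, by role (y axis), each point 1 gene, filled where the adjusted p was under 0.05. Left, Ezh2-KO over WT in CD44+ NK1.1- cells, with Ctbp2 at 3.89 and Dlk1 at 1.58; right, CD44+ NK1.1+ over CD44+ NK1.1- cells, with 22 of the 66 pathway genes called higher and 10 lower (12 and 14 with scaling by library size alone).

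Between subsets more genes of the pathway were called. In CD44+ NK1.1+ against CD44+ NK1.1- cells 22 of the 66 genes were called higher and 10 lower, beside 16.4% and 16.1% of all genes, and with scaling by library size alone 12 were called higher and 14 lower. Lfng, a glycosyltransferase that tunes which ligand a Notch receptor answers to, was at 319 CPM in Ezh2-KO and 336 CPM in WT CD44+ NK1.1+ cells, against 149 to 173 CPM in the 4 CD44+ NK1.1- libraries (log2 difference 1.06, SE 0.08, edgeR adjusted p = 0.000742). Nedd4, a ubiquitin ligase, rose by 1.23 (SE 0.11, edgeR adjusted p = 0.0013) and Ccnd3 by 1.22 (SE 0.08, 0.000559). Tcf7, a T cell transcription factor induced by Notch in early thymocytes, differed by -1.25 (SE 0.09, edgeR adjusted p = 0.000714) and Dlk1 by -2.54 (SE 0.21, 0.00101). Hey1, a Notch target related to Hes1, was singled out after its values were seen. It was at 1.16 CPM in Ezh2-KO and 0.92 CPM in WT CD44+ NK1.1+ cells, against 14.3 CPM in each Ezh2-KO and 31.3 and 8.60 CPM in the WT CD44+ NK1.1- libraries (log2 difference -4.03, SE 0.86, edgeR adjusted p = 0.0454). The Hey1 call was not put through the alternatives. Hes1 and Hey1 were low in the same 2 libraries in which Dtx1 was highest, but the targets did not move together. Of the 12 targets tested outside the members, 2 were called higher and 3 lower, beside 16.4% and 16.1% of all genes. Il2ra, higher by 1.01, went the other way from Hey1, as did Ccnd3 and the member Nrarp.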

How the data were processed

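RNA from thymic NKT cells was sequenced, each library on 4 lanes per the series design text. The authors deposited raw counts, whole numbers of reads for each gene. Per the submitters' processing notes, CASAVA, Subread 1.4.3-p1, featureCounts and build mm10 were used. The sources used here name no annotation or strand setting, so reads of a gene and an antisense partner may be mixed. Symbols and positions come from a RefSeq table of the same assembly, which matched 25275 of 27179 identifiers. The members and gene lists were chosen with earlier results of these data known.

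Counts were analysed in R 4.3.3 with edgeR 4.0.16. The filter filterByExpr with the 6 groups left 13794 genes, which were scaled by TMM and fitted with glmQLFit (robust=TRUE) and the quasi-likelihood F test. Benjamini-Hochberg adjustment ran over all tested genes, and called means an adjusted p under 0.05. One model gave each group its mean (2 residual degrees of freedom), from which came the comparison in CD44+ NK1.1- cells, those between subsets and the differences between genotype effects. Another took subset and genotype as added effects (4 residual degrees of freedom). The SE is the log2 difference divided by the square root of its F. Log2 CPM used a prior count of 2. RPKM used the gene lengths of the deposited table. Depth of 20308745 to 22995090 counts puts 3 counts at 0.129 to 0.151 CPM. Ratios of single libraries carry exact 95% intervals for counting error only. The groups come from the labels. Pathway genes are given by role lists, with up to 3 named per list and comparison, called ones first. Alternatives were other scalings, other filters, DESeq2 1.42.0, limma-voom (limma 3.58.1), each library left out, only the 4 CD44+ NK1.1- libraries, and single genotypes. For Dtx1 no test is given for comparisons built from its genotype values or for Ezh2-KO cells alone. The steps were tested on simulated data.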

Additional observations from a re-analysis of the deposited data

How the results depend on the processing

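For the 127 gene results, 1302 of 1555 alternatives kept direction and side of the threshold, 219 lost the call, 24 gained it, 8 reversed and 2 moved the Dtx1 description over the subsets. Leaving out a library decided most changes, since only the CD44+ NK1.1- pairs give a spread. Without WT CD44+ NK1.1- replicate 1 or 2 it comes from the tight Ezh2-KO pair and calls multiply, and without an Ezh2-KO replicate it comes from the wide WT pair. A lone sample is assumed to vary like the other groups. No paired analysis was possible because the labels give no replicate numbers that pair libraries.

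With a library left out in turn, calls ranged from 101 to 5792 genes and 0 to 6 of the 7 Notch members for Ezh2-KO against WT in CD44+ NK1.1- cells. They ranged from 489 to 2794 genes and 1 to 4 members over the 3 subsets, and from 1519 to 8585 genes for CD44+ NK1.1+ against CD44+ NK1.1- cells. For CD44+ NK1.1- against CD44- NK1.1- cells the range was 83 to 4394 genes and 0 to 5 members, and for CD44+ NK1.1+ against CD44- NK1.1- cells 2167 to 8661 genes. For the difference of the Ezh2-KO effect it was 0 to 2634 genes and 0 to 3 of the 7 members in CD44+ NK1.1+ cells, and 1 to 3063 genes and 0 to 5 members in CD44- NK1.1- cells.

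For Ezh2-KO against WT in CD44+ NK1.1- cells, 1 of the 7 members was called with library size only, with DESeq2 and with limma-voom. For CD44+ NK1.1- against CD44- NK1.1- cells, 2 of 8 were called with no filter and with DESeq2, and 0 members and 68 genes in Ezh2-KO libraries only. The effect in CD44+ NK1.1+ cells differed in 1 gene with no filter and 28 with DESeq2, and that in CD44- NK1.1- cells in 24 with no filter, 1 with the CPM filter and 28 with DESeq2. CD44+ NK1.1+ against CD44+ NK1.1- cells had 2565 genes in Ezh2-KO only, and 1416 genes and 3 members in WT only, and CD44+ NK1.1+ against CD44- NK1.1- cells had 2118 in Ezh2-KO only and 2052 in WT only.

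The reversed values are all of genes not called. Notch2 over the 3 subsets ranged from -0.02 to 0.11 with a library left out, and Notch3 in CD44+ NK1.1- against CD44- NK1.1- cells from -0.95 to 0.03. In WT only, Notch3 was 0.99 there and -0.50 in CD44+ NK1.1+ against CD44+ NK1.1- cells, where Notch2 was 0.09. Dtx1 in CD44+ NK1.1- against CD44- NK1.1- cells was 0.00 in Ezh2-KO only.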

Other observations

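Since Dtx1 is also studied as a gene of T cell anergy, 12 genes tied to anergy were read beside it. Between genotypes they were called in both directions. In CD44+ NK1.1- cells 2 were called higher without Ezh2 and 1 lower, beside 3.78% and 1.16% of all genes, with a median log2 difference of -0.05 over the 12. Rnf128, which encodes the ubiquitin ligase GRAIL, was at 16.6 and 15.5 CPM in Ezh2-KO cells, against 5.72 and 4.60 CPM in WT cells (log2 difference 1.64, SE 0.16, edgeR adjusted p = 0.00577). Ndrg1 was at 26.1 and 27.0 CPM in Ezh2-KO cells, against 12.5 and 10.6 CPM in WT cells (1.20, SE 0.14, edgeR adjusted p = 0.00863). Nfatc2, a transcription factor activated by calcium signals, was at 108 and 100 CPM in Ezh2-KO cells, against 156 and 152 CPM in WT cells (-0.57, SE 0.09, edgeR adjusted p = 0.0261). All 3 calls were lost when either Ezh2-KO CD44+ NK1.1- replicate was left out. Over the 3 subsets Nfatc2 fell by 0.44 on the log2 scale, a call kept under all 14 alternatives. Rnf128 rose by 1.31 and Ndrg1 by 1.01 there, calls lost under 5 and 4 of the 14. In CD44+ NK1.1+ against CD44+ NK1.1- cells 5 of the 12 were called higher and 0 lower by edgeR, beside 16.4% and 16.1% of all genes. DESeq2 called 4 higher and 1 lower. At an unadjusted p under 0.05, 6 were higher and 1 lower, beside 6237 of the 13794 genes in either direction. Among those called, Rnf128 rose by 1.15 (SE 0.13, edgeR adjusted p = 0.0024) and Nfatc2 by 0.69 (SE 0.08, 0.00226).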
